A study of Homo sapiens with 2 samples.

Results

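The genes described here are 10 transcriptional outputs of the ERK pathway: the dual-specificity phosphatase genes DUSP4, DUSP5 and DUSP6, the Sprouty genes SPRY2 and SPRY4, the Sprouty-related genes SPRED1 and SPRED2, the ETS transcription factor genes ETV4 and ETV5, and the AP-1 subunit gene FOSL1. They were taken by name for their role as feedback and output genes of ERK, with no threshold on their values, and all 10 were found among the 19362 genes of the table. RNA sequencing compared FTC-133 cells that received siRNA against CHI3L1 (1 library) with FTC-133 cells that received a control siRNA (1 library). FTC-133 is an established human line from a follicular thyroid carcinoma, so the data come from 1 tumour line in culture. CHI3L1 encodes chitinase-3-like protein 1, a secreted glycoprotein that binds chitin. The comparison asks how these transcripts differ when CHI3L1 is silenced. With 1 library per group there is no replicate check, no p-value is given, and every difference is one between these libraries. The sources used here do not say whether 1 culture or several went into a library.

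Growth factor receptors switch on RAS, which starts a kinase chain from RAF through MEK to ERK. Active ERK turns on genes whose products damp the same chain: the DUSP phosphatases take the phosphates off ERK and related kinases, while Sprouty and SPRED proteins act near RAS and RAF. It also turns on transcription factors that carry the signal further, such as ETV4, ETV5 and FOSL1. In thyroid cancers with mutated RAS pathway genes, transcripts of this kind are commonly read as a measure of ERK output. They respond to the signal and are not the signal, and no phosphorylated ERK was measured here.

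No member passed 1.5-fold in either direction. DUSP6 came nearest on the lower side and SPRED2 on the higher side, and 7 of the 10 were above 0 on the log2 scale while 3 were below. The recovered reads numbered 19467345 in the CHI3L1 siRNA library and 15837449 in the control siRNA library. CHI3L1 itself stood at 48.6 CPM (947 reads) in the CHI3L1 siRNA library, and at 140 CPM (2215 reads) where the control siRNA was used, a read ratio of 0.347 (95% interval 0.321 to 0.374). CPM is a gene's read count scaled by the depth of its library. Log2 folds set CHI3L1 siRNA over control siRNA with 1 CPM added to both values, and so understate differences of low genes. Of all 14815 genes that averaged 1 CPM or more over the libraries, 7.73% passed 1.5-fold on the higher side and 13.4% on the lower side, so 0 of 10 members stands beside 21.1% in either direction over all genes. Of the genes past 1.5-fold, 36.5% were higher ones as deposited, 22.2% once ratios were centred on genes averaging 50 CPM or more, and 55.0% once a trend with transcript length and GC content was subtracted (the length and GC correction). Among cell markers, the thyroid transcription factor genes PAX8 and NKX2-1 were present. PAX8 stood at 71.2 and 82.8 CPM in the CHI3L1 siRNA and control siRNA libraries, and NKX2-1 at 112 and 88.6 CPM in the same order. FOXE1, another such gene, stood at 0.975 CPM (19 reads) in the CHI3L1 siRNA library and 0.0633 CPM (1 read) in the control siRNA library. The thyroglobulin gene TG was at 0.718 and 0.632 CPM in the same order, and SLC5A5 was not analysed here. The immune marker PTPRC stood at 0.410 CPM in the CHI3L1 siRNA library and 0.759 CPM in the control siRNA library. Summed over its list, the epithelial markers stood at 378 CPM in the CHI3L1 siRNA library and 343 CPM in the control siRNA library. The endothelial markers summed to 9.75 and 11.3 CPM in the same order, but did not share a direction. PECAM1 alone gave the smaller sum, at 3.80 CPM with CHI3L1 siRNA against 7.34 CPM with control siRNA. KDR (4.05 against 2.47 CPM) and VWF (1.90 against 1.45 CPM) went the other way, and CDH5 was not analysed here. The fibroblast markers summed to 795 CPM in the CHI3L1 siRNA library and 618 CPM in the control siRNA library, most of it THY1 (745 and 558 CPM in the same order). Of the other fibroblast markers, LUM was lower in the CHI3L1 siRNA library (40.2 CPM, against 51.8 CPM in the control siRNA library). PDGFRB and DCN were slightly higher there. The mesenchymal markers VIM, CDH2 and FN1 summed to 42002 CPM in the CHI3L1 siRNA library and 19002 CPM in the control siRNA library, most of it FN1 (log2 fold 1.19), and their part in the members' values was not tested. In bulk RNA, fewer cells that express a gene and less of its RNA per cell cannot be told apart.

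The stretches of DNA around the start sites of DUSP6 and SPRED2 are shown because these are the members with the lowest and the highest ratio. RefSeq (GRCh38.p14) gave windows from 250 bases before to 50 after a start site for 5 members, in 8 windows: DUSP6, SPRY2, SPRY4, SPRED1 and SPRED2. Capitals mark CGGAA, the core that many ETS factors bind, or TGANTCA, the AP-1 site, on either strand. The DUSP6 window is chr12:89352452-89352751, minus strand. The SPRED2 windows are chr2:65432550-65432849 and chr2:65366729-65367028, both minus strand, and the second lies at a start site inside the gene.
DUSP6: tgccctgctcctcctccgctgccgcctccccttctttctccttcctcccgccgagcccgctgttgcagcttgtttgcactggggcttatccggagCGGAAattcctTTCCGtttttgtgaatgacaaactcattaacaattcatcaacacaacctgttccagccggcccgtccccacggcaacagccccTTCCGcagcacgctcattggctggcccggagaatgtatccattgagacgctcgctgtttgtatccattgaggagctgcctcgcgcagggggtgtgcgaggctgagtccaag
SPRED2, first start: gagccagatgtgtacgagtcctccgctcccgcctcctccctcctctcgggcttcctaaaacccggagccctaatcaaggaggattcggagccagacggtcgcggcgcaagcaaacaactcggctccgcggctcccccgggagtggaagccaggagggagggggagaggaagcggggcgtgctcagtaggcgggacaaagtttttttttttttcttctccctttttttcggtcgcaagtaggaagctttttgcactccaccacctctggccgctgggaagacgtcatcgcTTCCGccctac
SPRED2, inner start: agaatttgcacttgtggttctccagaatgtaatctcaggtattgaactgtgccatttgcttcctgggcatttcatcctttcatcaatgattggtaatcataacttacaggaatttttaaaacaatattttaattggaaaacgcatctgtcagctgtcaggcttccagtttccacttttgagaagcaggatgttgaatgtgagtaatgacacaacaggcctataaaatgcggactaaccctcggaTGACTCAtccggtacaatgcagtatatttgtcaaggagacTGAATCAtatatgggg
The DUSP6 window held CGGAA at 3 places, and the first SPRED2 window held it at 1 place, 40 bases after the start. The inner SPRED2 window held TGANTCA at 2 places, the first of them crossing the start site. CGGAA was in 3 of the 8 member windows, against 34.9% of all 35116 windows, and TGANTCA in 1 of 8, against 7.71%. The longer ETS form CCGGAAG, which contains CGGAA, was in 0 of 8 member windows and 10.3% of all. The cyclic AMP response element TGACGTCA was in 0 of 8 (1.85% of all). TGAATGAA and TGAATGGA, forms of the site of the repressor CIC, were in 0 of 8 each (1.65% and 1.03% of all). Forms of the CIC site that start with TCAATG were not searched, so these counts do not say that the windows lack CIC sites. These matches describe letters and not binding.

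**Figure D1:**
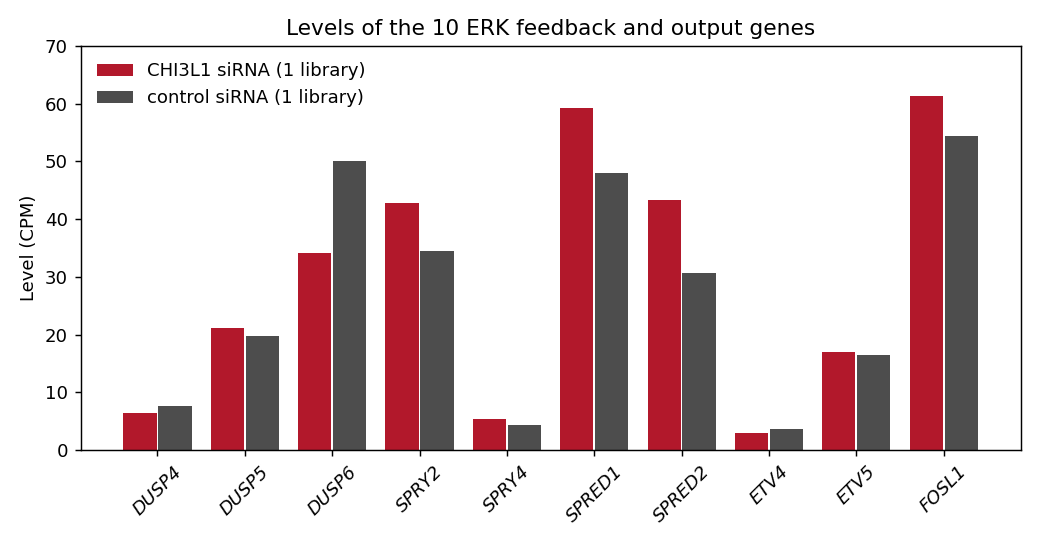
Level of each member in CPM in the CHI3L1 siRNA library (red, left bar) and the control siRNA library (grey, right bar), 1 library each, with no error bars. DUSP6 is the member with the widest gap downward, at 34.2 CPM against 50.1 CPM, and SPRED2 the one with the widest gap upward, at 43.3 CPM against 30.7 CPM.

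The phosphatase genes differed among themselves. DUSP6 encodes a cytoplasmic phosphatase selective for ERK (ENSG00000139318, chromosome 12, 89347232 to 89353271, minus strand). It stood at 34.2 CPM (666 reads) in the CHI3L1 siRNA library and 50.1 CPM (793 reads) in the control siRNA library. It was thus lower in the CHI3L1 siRNA library, with a read ratio of 0.681 (0.614 to 0.756) and a log2 fold of −0.54, short of 1.5-fold. It was the single member past 1.5-fold under the centring (log2 fold −0.64) and under the length and GC correction (−0.69). Under the centring 1 of 10 members lower and 0 higher stand beside 16.9% lower and 4.82% higher of 14832 genes. Under the correction 1 of 10 members lower and 0 higher stand beside 6.13% lower and 7.5% higher of 12660 coding genes. An antisense gene, AC024909.2, overlaps exons of DUSP6 and had 24 reads in the CHI3L1 siRNA library and 55 in the control siRNA library. Without a stated strand setting its reads and those of DUSP6 cannot be told apart.

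DUSP5 encodes a nuclear phosphatase selective for ERK (ENSG00000138166, chromosome 10, 110497838 to 110511544, plus strand). It stood at 21.2 CPM (413 reads) in the CHI3L1 siRNA library and 19.8 CPM (313 reads) in the control siRNA library. These levels are close, and the read ratio of 1.07 (0.922 to 1.24) held 1. DUSP4, whose nuclear product acts on ERK and on JNK and p38 kinases (ENSG00000120875, chromosome 8, 29333064 to 29350668, minus strand), stood at 6.36 CPM (124 reads) in the CHI3L1 siRNA library and 7.65 CPM (121 reads) in the control siRNA library. The ratio of 0.831 (0.642 to 1.08) held 1 and also reached past 1.5-fold lower, so counting error leaves room for either.

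Shares within a family do not depend on how the libraries were scaled. DUSP6 made up 55.4% (exact Clopper-Pearson interval 52.5 to 58.2) of the 1203 reads of DUSP4, DUSP5 and DUSP6 together in the CHI3L1 siRNA library, against 64.6% (61.9 to 67.3) of 1227 reads in the control siRNA library. DUSP5 made up 34.3% (31.6 to 37.1) in the CHI3L1 siRNA library and 25.5% (23.1 to 28.0) in the control siRNA library. These intervals do not overlap for either gene, so DUSP6 and DUSP5 differed unequally between the libraries beyond counting error. The DUSP4 share was 10.3% (8.65 to 12.2) in the CHI3L1 siRNA library and 9.86% (8.25 to 11.7) in the control siRNA library, and those intervals overlap. All intervals here cover counting error only. PCR copies were not marked by molecular identifiers as far as the labels say, and copies of 1 molecule would make the intervals too narrow.

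Of other phosphatase genes of the family, DUSP1, an immediate early gene whose product acts on p38, JNK and ERK kinases, stood at 106 CPM in the CHI3L1 siRNA library and 223 CPM in the control siRNA library. This gene (log2 fold −1.07) was the one past 1.5-fold among DUSP1, DUSP2, DUSP7, DUSP8, DUSP10 and DUSP16. After centring, DUSP2 was past it too, and after the length and GC correction DUSP8 was, both on the lower side. DUSP7, the cytoplasmic relative of DUSP6, stood at 15.3 CPM in the CHI3L1 siRNA library and 13.8 CPM in the control siRNA library (log2 fold 0.13). DUSP2, DUSP7 and DUSP8 were named after their values were seen.

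Each Sprouty and SPRED member had a higher level in the CHI3L1 siRNA library, by less than 1.5-fold. SPRED2 binds RAS and RAF and holds back the activation of RAF (ENSG00000198369, chromosome 2, 65310851 to 65432637, minus strand). It stood at 43.3 CPM (844 reads) in the CHI3L1 siRNA library and 30.7 CPM (485 reads) in the control siRNA library. The SPRED2 level was thus higher in the CHI3L1 siRNA library, with a ratio of 1.41 (1.26 to 1.58) and a log2 fold of 0.48, or 0.31 after the length and GC correction. SPRED1, whose product brings neurofibromin to RAS at the membrane (ENSG00000166068, chromosome 15, 38252326 to 38357249, plus strand), stood at 59.2 CPM (1155 reads) in the CHI3L1 siRNA library and 47.9 CPM (758 reads) in the control siRNA library. The ratio was 1.24 (1.13 to 1.36), and 1.5-fold lay outside that interval.

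SPRY2 encodes an inhibitor of receptor signalling to RAS (ENSG00000136158, chromosome 13, 80335976 to 80340951, minus strand). It stood at 42.8 CPM (834 reads) in the CHI3L1 siRNA library and 34.5 CPM (545 reads) in the control siRNA library, a ratio of 1.24 (1.11 to 1.39). SPRY4, a relative with a like role (ENSG00000187678, chromosome 5, 142310427 to 142326455, minus strand), stood at 5.39 CPM (105 reads) in the CHI3L1 siRNA library and 4.30 CPM (68 reads) in the control siRNA library. The ratio of 1.25 (0.914 to 1.73) was close to that of SPRY2, but with fewer reads its interval held both 1 and 1.5. SPRY4 took 11.2% (9.24 to 13.4) of the reads of SPRY2 and SPRY4 in the CHI3L1 siRNA library and 11.1% (8.72 to 13.9) in the control siRNA library. SPRED2 took 42.2% (40.0 to 44.4) of the reads of SPRED1 and SPRED2 in the CHI3L1 siRNA library and 39.0% (36.3 to 41.8) in the control siRNA library. In both families the intervals overlapped between libraries.

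Of the relatives outside the 10, SPRY1 and SPRY3 stood further apart between the libraries and SPRED3 did not. SPRY1 was at 15.6 CPM in the CHI3L1 siRNA library and 8.41 CPM in the control siRNA library, a ratio of 1.86 (1.51 to 2.30) and a log2 fold of 0.82, or 1.01 after the length and GC correction. SPRY3 was at 5.64 CPM in the CHI3L1 siRNA library and 3.29 CPM in the control siRNA library, a ratio of 1.72 (1.22 to 2.43). Both were past 1.5-fold higher, but SPRY3 was not after centring or after the correction. SPRED3, named after its values were seen, stood at 7.03 CPM in the CHI3L1 siRNA library and 6.32 CPM in the control siRNA library (log2 fold 0.13).

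**Figure D2:**
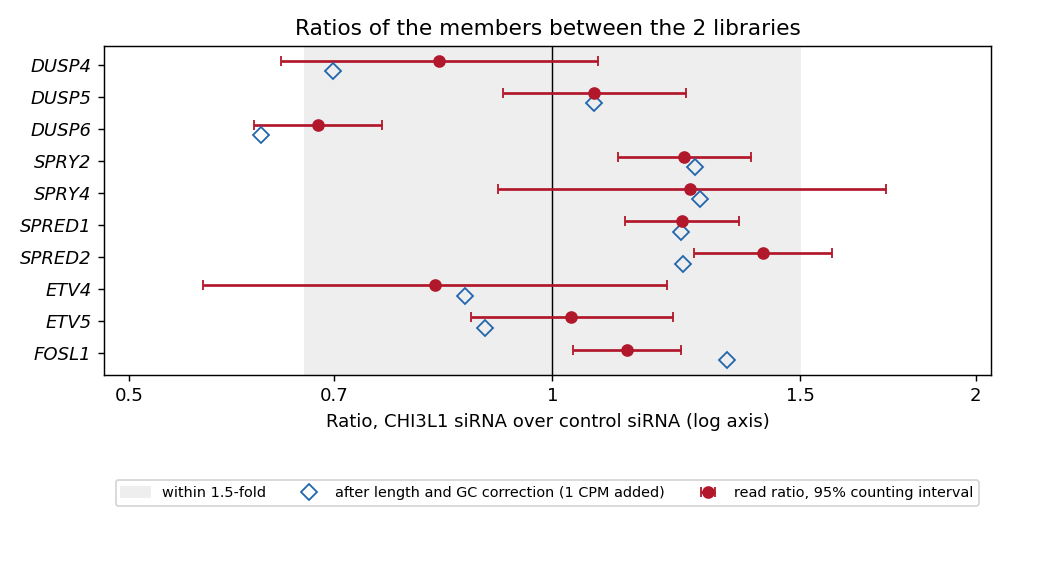
Read ratio of each member, CHI3L1 siRNA over control siRNA, on a log axis, with 95% exact counting intervals (red) and the ratio after the length and GC correction on the scale with 1 CPM added (open diamonds). The grey band marks 1.5-fold: all 10 red points lie inside it, while the corrected DUSP6 value lies below it.

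None of the transcription factor genes passed 1.5-fold, and ETV5 was the nearest to level between the libraries. ETV5, an ETS factor of the PEA3 group (ENSG00000244405, chromosome 3, 186046308 to 186110318, minus strand), stood at 17.0 CPM (332 reads) in the CHI3L1 siRNA library and 16.5 CPM (261 reads) in the control siRNA library. The ratio was 1.03 (0.875 to 1.22), and its log2 fold of 0.04 turned to −0.05 after centring and −0.16 after the correction. An exon of DGKG on the same strand overlaps ETV5, with 75 reads in the CHI3L1 siRNA library and 41 in the control siRNA library. ETV4, another PEA3 factor (ENSG00000175832, chromosome 17, 43527844 to 43579620, minus strand), stood at 3.03 CPM (59 reads) in the CHI3L1 siRNA library and 3.67 CPM (58 reads) in the control siRNA library. The ratio of 0.825 (0.564 to 1.21) left both no difference and 1.5-fold lower within counting error. DHX8 overlaps ETV4 on the opposite strand and had 857 reads in the CHI3L1 siRNA library and 539 in the control siRNA library, more than ETV4 itself, so the ETV4 value is uncertain. The third PEA3 gene, ETV1, named after its values were seen, stood at 176 CPM in the CHI3L1 siRNA library and 195 CPM in the control siRNA library (log2 fold −0.15).

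FOSL1 encodes FRA1, an AP-1 subunit that ERK induces and stabilises (ENSG00000175592, chromosome 11, 65892049 to 65900573, minus strand). It stood at 61.4 CPM (1197 reads) in the CHI3L1 siRNA library and 54.3 CPM (859 reads) in the control siRNA library. The FOSL1 level was slightly the higher in the CHI3L1 siRNA library, with a ratio of 1.13 (1.03 to 1.24), and its log2 fold of 0.17 became 0.41 after the length and GC correction. Among the reads of FOSL1, FOSL2, FOS and FOSB, FOSL1 took 7.56% (7.16 to 7.99) in the CHI3L1 siRNA library and 5.52% (5.16 to 5.89) in the control siRNA library. FOSL2, which encodes the related subunit FRA2, took 43.9% (43.1 to 44.7) in the CHI3L1 siRNA library and 20.6% (19.9 to 21.2) in the control siRNA library. FOS took 32.3% (31.6 to 33.1) in the CHI3L1 siRNA library and 47.5% (46.7 to 48.3) in the control siRNA library. FOSB, added to complete the family, took 16.2% (15.6 to 16.8) in the CHI3L1 siRNA library and 26.4% (25.7 to 27.1) in the control siRNA library. The reads of this AP-1 family were thus divided differently in the libraries, with larger shares of both FOSL genes and smaller shares of FOS and FOSB in the CHI3L1 siRNA library. These shares are not corrected for transcript length and GC content. With the length and GC correction the log2 fold of FOSL2 went from 0.81 to 0.51, short of 1.5-fold, and that of FOS from −0.83 to −0.78.

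**Figure D3:**
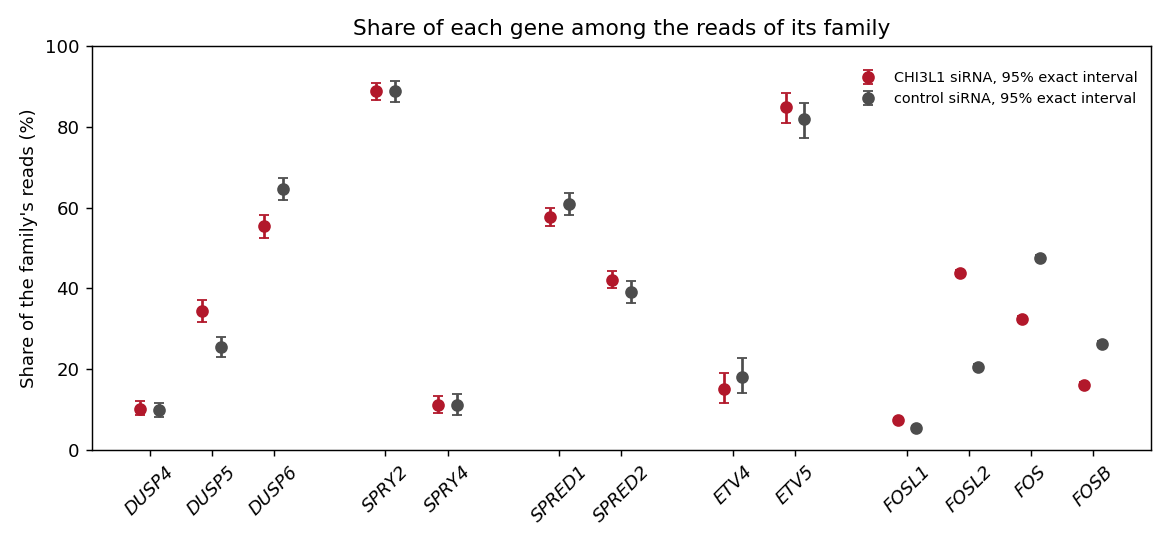
Share of each gene among the reads of its family, in percent, in the CHI3L1 siRNA library (red, left) and the control siRNA library (grey, right), with exact 95% intervals that cover counting error. The DUSP5 and DUSP6 intervals do not overlap between libraries, at 34.3% against 25.5% and 55.4% against 64.6%, while those of the SPRY, SPRED and ETV genes do.

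By counting error alone and with the scaling as deposited, the read ratio lay wholly above 1 for SPRED2, SPRY2, SPRED1 and FOSL1. It lay wholly below 1 for DUSP6 and held 1 for the other 5. Of the 4 above 1, FOSL1 had the lower bound nearest to 1, and centring took its log2 fold from 0.17 to 0.07. Intervals were not computed after centring. Over all tested genes the interval lay wholly above 1 for 32% and wholly below 1 for 29.7%, so 5 of 10 members without 1 stands beside 61.6% over all genes. The interval lay wholly within 1.5-fold for 5 members (DUSP5, SPRY2, SPRED1, ETV5 and FOSL1) and reached past it for DUSP4, DUSP6, SPRY4, SPRED2 and ETV4. The median log2 fold of the 10 was 0.13, against 0.01 for all tested genes. The length and GC correction gave medians of 0.20 for the members and 0.07 for all coding genes it could be applied to. Summed over the 10, the level was 294 CPM in the CHI3L1 siRNA library and 269 CPM in the control siRNA library.

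Per kilobase of transcript, FOSL1 had the highest level of the 10 in both libraries, at 36.8 CPM per kb in the CHI3L1 siRNA library and 32.5 CPM per kb in the control siRNA library. That placed it at the 85.4th and 82.2nd percentile of coding genes in those libraries. SPRY2 came next, at 15.8 CPM per kb in the CHI3L1 siRNA library and 12.7 CPM per kb in the control siRNA library. DUSP6 was the third in the control siRNA library, at 11.4 CPM per kb with an interval that overlapped that of SPRY2. It was the fifth in the CHI3L1 siRNA library at 7.76 CPM per kb, where its interval overlapped those of DUSP5 (8.28) and SPRED1 (7.61). SPRED2 stood at 10.6 CPM per kb in the CHI3L1 siRNA library and 7.49 CPM per kb in the control siRNA library, where it overlapped DUSP5 (7.74). ETV5 (4.14 and 4.01 CPM per kb in the CHI3L1 siRNA and control siRNA libraries) and SPRY4 (2.26 and 1.81) followed in both. ETV4 (1.25 and 1.51) and DUSP4 (1.15 and 1.38) were the lowest in both libraries, with intervals that overlapped each other, and in the control siRNA library also that of SPRY4. These orders rest on 1 annotated transcript per gene.

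Folds in these libraries followed transcript length, and the members span much of that range. Their transcripts run from 1669 nt (FOSL1) to 7780 nt (SPRED1). The 4627 coding genes over 4000 nt had a median log2 fold of 0.25, with quartiles of −0.02 and 0.47. Of the 5 members in that class, DUSP6 (4400 nt) and DUSP4 (5537 nt, log2 fold −0.23) lay under the lower quartile, SPRED2 (4097 nt) above the upper one, and SPRED1 and ETV5 between them. The 4942 genes over 2000 and up to 4000 nt had a median of 0.03 with an upper quartile of 0.27. SPRY2 (log2 fold 0.30) lay above it, and SPRY4 (0.27) near it. FOSL1 (0.17) lay above the upper quartile of 0.06 of the 2492 genes over 1000 and up to 2000 nt.

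**Figure D4:**
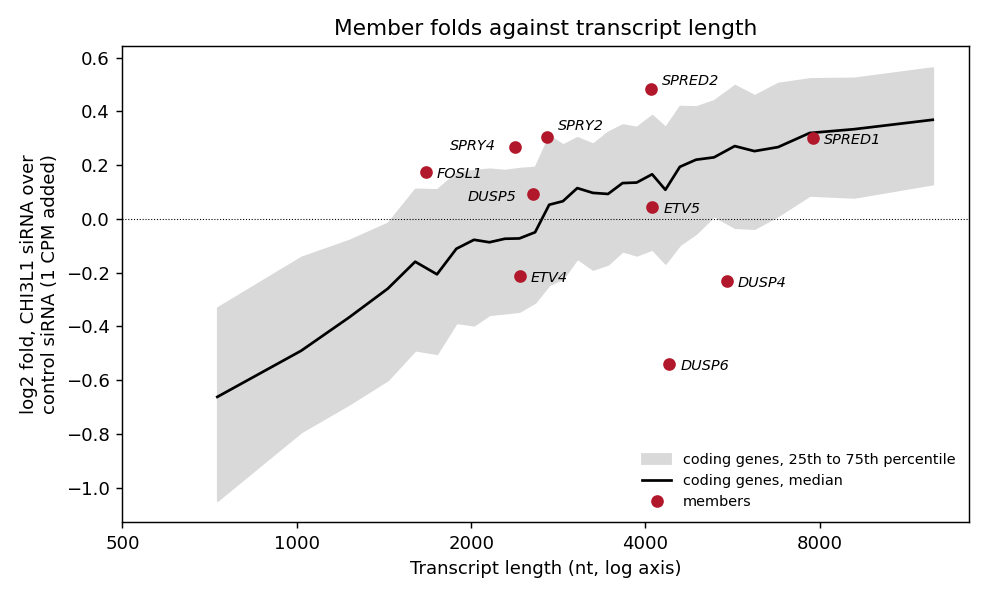
Log2 fold of each member, CHI3L1 siRNA over control siRNA with 1 CPM added, against transcript length in nt on a log axis (red points), over the median (line) and the 25th to 75th percentile (grey) of coding genes in bins of length. DUSP6 and DUSP4 lie below the grey band, FOSL1, SPRY4 and SPRED2 above it, and SPRY2 at its upper edge.

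The rest of the pathway was read from 6 lists with 112 genes, of which 98 had a mean of at least 1 CPM. Of these, 13 passed 1.5-fold on the higher side and 7 on the lower side, beside 7.73% and 13.4% of all genes. With centring the counts were 7 higher and 11 lower, so the balance between directions depends on the scaling. Of 19 tested genes listed as other ERK outputs, 2 were higher and 6 lower, with a median log2 fold of −0.23. The lowest were MMP1, a collagenase (0.769 CPM, 15 reads, in the CHI3L1 siRNA library and 8.85 CPM, 140 reads, in the control siRNA library), and CXCL8, a chemokine (31.6 CPM in the CHI3L1 siRNA library and 84.2 CPM in the control siRNA library). CXCL8 had a log2 fold of −1.38, but −0.18 after the length and GC correction. SPHK1, which makes sphingosine-1-phosphate, stood at 37.0 CPM in the CHI3L1 siRNA library and 77.5 CPM in the control siRNA library (log2 fold −1.05, and −0.99 corrected). PRPSAP1 overlaps SPHK1 on the opposite strand and had 958 reads in the CHI3L1 siRNA library and 807 in the control siRNA library.

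The immediate early gene FOS stood at 263 CPM in the CHI3L1 siRNA library and 468 CPM in the control siRNA library, a ratio of 0.561 (0.542 to 0.582). EGR1, another, stood at 201 CPM in the CHI3L1 siRNA library and 293 CPM in the control siRNA library (log2 fold −0.54, and −0.67 corrected). The other 2 lower outputs were TNFRSF12A and IL6, and the 2 higher ones were PLAUR, the urokinase receptor gene (78.0 CPM in the CHI3L1 siRNA library and 51.6 CPM in the control siRNA library), and EPHA4 (1.80 CPM in the CHI3L1 siRNA library and 0.822 CPM in the control siRNA library). PHLDA1, CCND1, EPHA2 and EPHA4, which ERK output signatures often include beside members of the 10, had log2 folds of 0.34, −0.08, −0.05 and 0.62. That of EPHA4 rests on 35 reads in the CHI3L1 siRNA library and 13 in the control siRNA library. EGR1, TNFRSF12A, IL6, PLAUR, EPHA4, PHLDA1, CCND1 and EPHA2 were named after their values were seen. After centring, neither PLAUR nor EPHA4 was past 1.5-fold. After the length and GC correction 1 of the 19 outputs was higher (PLAUR) and 4 were lower (MMP1, SPHK1, FOS and EGR1), while TNFRSF12A (log2 fold −0.68, and −0.10 corrected), IL6 (−0.61, and −0.03 corrected) and EPHA4 (0.62, and 0.31 corrected) were no longer past 1.5-fold.

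Upstream of the members, 0 of 12 genes of RAS and the kinase chain passed 1.5-fold, with a median log2 fold of 0.21. HRAS stood at 25.3 CPM in the CHI3L1 siRNA library and 36.0 CPM in the control siRNA library (log2 fold −0.49, and 0.03 corrected), and NRAS had a log2 fold of −0.43, or −0.07 corrected. KSR1, a scaffold of the chain, had one of 0.30, or −0.08 corrected. After centring HRAS was past 1.5-fold lower.

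Of 19 tested RAS activators, adaptors and GTPase-activating proteins, 1 was higher and 0 were lower. That gene was RASAL2, a negative regulator of RAS, at 75.9 CPM in the CHI3L1 siRNA library and 44.2 CPM in the control siRNA library (log2 fold 0.77, and 0.47 corrected). CBL, GAB1 and the RAS exchange factor gene SOS1 had log2 folds of 0.48, 0.46 and 0.43, or 0.07, 0.43 and 0.42 corrected. Of 21 tested growth factor receptors and ligands, 4 were higher and 0 lower. The receptor genes IGF1R (45.6 CPM in the CHI3L1 siRNA library and 25.3 CPM in the control siRNA library) and ERBB2 (97.7 and 62.3 CPM in the same order) had log2 folds of 0.83 and 0.64, or 0.33 and 0.36 after the correction. The ligand genes HBEGF (6.87 CPM in the CHI3L1 siRNA library and 3.73 CPM in the control siRNA library) and FGF5 (184 and 120.0 CPM in the same order) had log2 folds of 0.73 and 0.61, or 0.88 and 0.99 corrected. After centring, 2 of the 21 were higher (HBEGF and IGF1R) and 1 was lower (PDGFA). After the length and GC correction, 4 were higher (AREG, EREG, FGF5 and HBEGF) and 1 was lower (FGFR3). AREG, EREG, PDGFA and FGFR3 were named after their values were seen.

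Among 15 genes of ERK effectors, 3 were higher and 0 lower. The ETS factor genes ETS2 (69.5 CPM in the CHI3L1 siRNA library and 39.2 CPM in the control siRNA library), ELK4 (49.6 and 30.4 CPM in the same order) and ETS1 (176 and 113 CPM) had log2 folds of 0.81, 0.69 and 0.64, and were past 1.5-fold after the correction too. After centring ETS1 was not. The kinase gene RPS6KA2 had a log2 fold of 0.55, or 0.17 corrected. ETV4 and ETV5 differed in their values from ETS2, ELK4 and ETS1, which had the 3 largest folds of this list. The ETS genes ELK1, ELK3 and ERF of the same list, named after their values were seen, had log2 folds of 0.21, 0.05 and 0.21. Those lay nearer to the values of ETV4 and ETV5. Differences between ETS genes were not tested. Among the relatives of the members, FOSL2 stood at 356 CPM in the CHI3L1 siRNA library and 202 CPM in the control siRNA library (log2 fold 0.81, and 0.51 corrected).

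**Figure D5:**
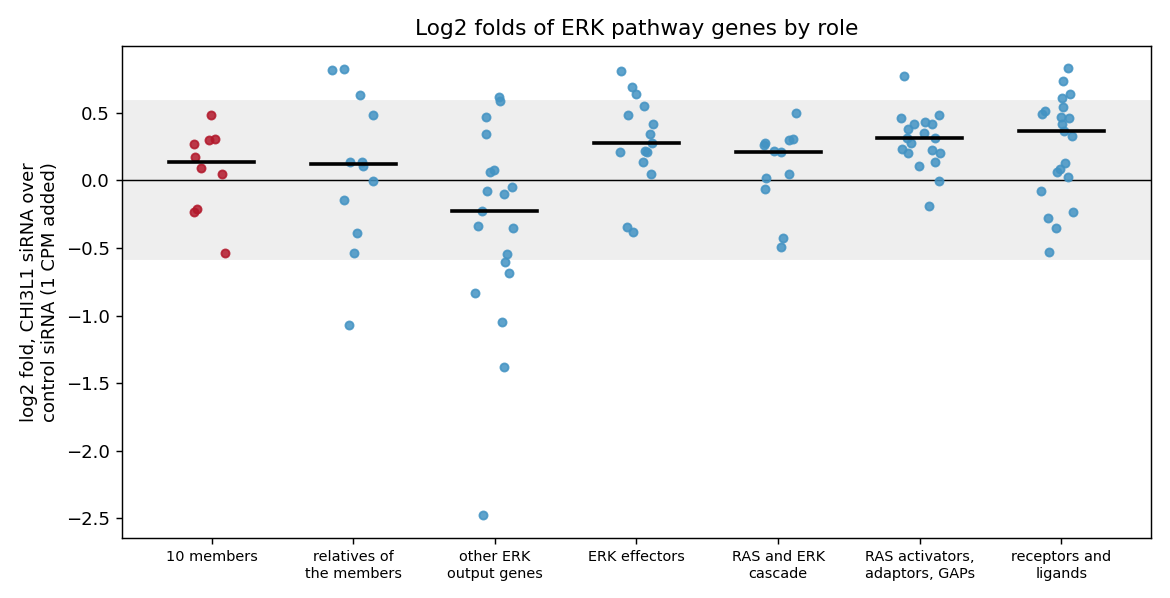
Log2 fold, CHI3L1 siRNA over control siRNA with 1 CPM added, for the 10 members (red) and for tested genes of 6 other lists (blue), 1 point per gene, with the list median as a bar and 1.5-fold as a grey band. All members lie inside the band, while the lists of relatives and of other ERK outputs reach past it on both sides, down to −2.48 for MMP1.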

How the data were processed

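Per the labels' protocols, Trizol was used for RNA extraction and a TruSeq RNA kit from Illumina for the libraries. The authors deposited 1 table of CPM values for 19362 Ensembl genes in 2 libraries, 1 per group. HISAT2, featureCounts, Trimmomatic, FastQC, MultiQC and the build GRCh38 are named in the submitters' processing notes, with no roles or versions. Not given in the sources used here are the normalisation tool, annotation release and strand setting. Reads were recovered by dividing each value by the worth of 1 read in its library and taking off 0.001 (0.0513 CPM in the CHI3L1 siRNA library and 0.0632 CPM in the control siRNA library), which left whole numbers within 0.01 for 100% of values. Every gene had at least 6 reads in 1 of the libraries.

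Gene symbols were looked up by Ensembl identifier (19265 matched) and in GENCODE release 29, which also gave coordinates, exons and 1 transcript per coding gene. Genes averaging 1 CPM or more were compared by size (1.5-fold, 1 CPM added), with no test. Read ratios have 95% Clopper-Pearson intervals and levels per kb exact Poisson intervals. The length and GC correction subtracted spline trends (5 degrees of freedom each) in GC content and in transcript and coding length, fitted to 12552 coding genes outside the lists, of whose folds it took up 36.1% of the variance, and the median was added back. It covered 12660 of 14815 tested genes (85.5%). Steps were tested on simulated data. Python 3.11.15, SciPy 1.17.1, patsy 1.0.2 and bedtools 2.31.1 were used. Members and lists were chosen with earlier results of these data known. Named genes are CHI3L1, the members, and the 4 largest absolute folds in each of 6 lists, of which some are not reported here. Likeness to other genes cannot be ranked over 2 libraries. Alternatives were other pseudocounts, filters, scalings and size rules, the correction, and coding genes only.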

Additional observations from a re-analysis of the deposited data

How the results depend on the processing

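No paired analysis was possible because each group has 1 library. All 9 alternatives were planned. With 0 of 10 members at least 1.5-fold higher in each, the count of lower members was 1 (DUSP6) after centring on genes that averaged 50 CPM or more and 1 (DUSP6) after the length and GC correction. Centring took 0.10 off each log2 ratio and turned the signs of DUSP5 and ETV5, and the correction that of ETV5. The range over alternatives was −0.69 to −0.45 for the log2 fold of DUSP6 and 0.31 to 0.49 for SPRED2. CHI3L1 had a log2 fold of −1.51, or −1.36 with 10 CPM added and −1.38 after the correction. All genes at least 1.5-fold higher numbered 492 with 10 CPM added, 715 after centring and 153 at 2-fold, against 1145. Those lower numbered 1011 with 10 CPM added, 654 at 2-fold and 776 after the correction, against 1988 (2505 after centring). Listed pathway genes outside the members that were higher numbered 5 with 10 CPM added, 7 after centring and 0 at 2-fold, against 13, and those lower 11 after centring and 4 at 2-fold, against 7. These settings by construction alter the folds or the rule. A filter at a mean of 10 CPM left out DUSP4, SPRY4 and ETV4. Depth limits those members most, at 58 to 124 reads per library.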
